A study of Mus musculus with 6 samples.

Results

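The 8 genes described here, Scap, Insig1, Insig2, Srebf2, Stard4, Tmem97, Npc1 and Npc2, encode proteins that sense sterols and move cholesterol inside the cell. They were taken by name as members of one pathway, each was found in the deposited table of 31384 genes, and 8 of the 8 were among the 16121 genes with enough counts to be tested. The cells were a mouse spermatogonial stem cell line, the germline stem cells of the testis, cultured for 18 days on mouse embryonic fibroblast feeders whose division had been stopped with mitomycin C. Every group received EGF, LIF and FGF2 in a StemPro-34 medium with fetal bovine serum, bovine serum albumin, progesterone and β-estradiol. The LOVA group had 5 uM lovastatin and no GDNF, the NTC group had neither GDNF nor lovastatin, and the PTC group had 10 ng/mL GDNF, with 2 RNA sequencing libraries in each group. Self-renewal of spermatogonial stem cells depends on GDNF. Lovastatin blocks an early step of cholesterol synthesis.

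Cells keep their cholesterol constant through a feedback loop in the endoplasmic reticulum. When sterols are low, Scap carries the membrane-bound transcription factor SREBP2, the product of Srebf2, to the Golgi, where proteases free it to switch on genes of cholesterol synthesis and uptake. When sterols are high, Insig1 and Insig2 hold Scap in the endoplasmic reticulum. Cholesterol taken up with lipoproteins is handed over in the lysosome by Npc2 to the membrane protein Npc1, which exports it, and Stard4 shuttles sterol between membranes. Insig1, Stard4, Npc1, Tmem97 and Srebf2 itself are known targets of SREBP2, while Insig2 is known for transcription that is less dependent on it.

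Total counts ranged from 12454671 to 22668087 per library. The letters A and B name the libraries as the deposited columns do. Nothing in the labels says whether they came from separate cultures, so p-values measure the spread between these libraries, which may be technical. The germ cell genes Ddx4 and Dazl were present in every library, with at least 2681 and 5001 counts. All 18 feeder fibroblast markers were also detected in every library and took 1.24% and 2.33% of counts in LOVA A and B, 1.40% and 2.27% in the NTC libraries, and 0.102% and 0.500% in PTC. The 16 pan-germ-cell genes took 0.328% and 0.185% in LOVA, 0.272% and 0.181% in NTC, and 0.477% and 0.482% in PTC. The 10 macrophage markers, each detected in every library, took 0.0439% and 0.0524% in LOVA, 0.197% and 0.248% in NTC, and 0.0293% and 0.0250% in PTC. In bulk RNA, fewer cells of a type and less RNA per cell cannot be told apart.

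Promoter sequence is shown for the 4 genes that passed a test in the comparison without and with GDNF, since promoter elements are how SREBP2 is known to reach its targets. RefSeq windows on GRCm38.p6 were found for 6 of the 8 genes. Stard4 and Npc1 had no entry. The 250 bases before the gene start that RefSeq annotates read as follows, at chr5:28071162-28071411 on the plus strand for Insig1, chr15:82147019-82147268 on the plus strand for Srebf2, chr11:78550736-78550985 on the minus strand for Tmem97 and chr12:84773113-84773362 on the minus strand for Npc2. Capitals mark matches on either strand to CCAAT, the box bound by NF-Y, to CACGTG, an E-box, and to the sterol element forms CACNCCAC and TCACCCCA.
Insig1: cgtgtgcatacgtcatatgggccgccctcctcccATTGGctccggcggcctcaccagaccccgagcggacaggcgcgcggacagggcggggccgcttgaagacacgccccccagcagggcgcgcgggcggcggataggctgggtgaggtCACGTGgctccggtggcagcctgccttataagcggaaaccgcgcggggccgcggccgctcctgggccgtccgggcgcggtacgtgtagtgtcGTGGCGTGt
Srebf2: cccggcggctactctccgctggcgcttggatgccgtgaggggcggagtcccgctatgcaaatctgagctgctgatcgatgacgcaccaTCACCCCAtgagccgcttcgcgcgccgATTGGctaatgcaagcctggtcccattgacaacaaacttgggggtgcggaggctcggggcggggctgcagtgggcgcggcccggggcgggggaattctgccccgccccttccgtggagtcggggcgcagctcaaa
Tmem97: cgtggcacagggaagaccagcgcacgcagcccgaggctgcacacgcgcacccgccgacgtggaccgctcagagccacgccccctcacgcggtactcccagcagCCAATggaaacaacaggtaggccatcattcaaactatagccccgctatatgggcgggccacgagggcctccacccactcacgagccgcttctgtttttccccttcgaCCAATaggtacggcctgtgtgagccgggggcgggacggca
Npc2: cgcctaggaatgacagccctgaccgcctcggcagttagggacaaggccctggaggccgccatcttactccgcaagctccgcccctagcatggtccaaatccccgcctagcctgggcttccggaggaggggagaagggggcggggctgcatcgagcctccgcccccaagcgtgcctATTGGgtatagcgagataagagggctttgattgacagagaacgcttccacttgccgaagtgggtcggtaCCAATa

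The sterol regulatory element form TCACNCCAC was found in none of the 6 genes with a window and in 1.44% of all genes. By window it stood in none of the 9 and in 1.24% of all 32851 promoter windows. At so low a share 6 genes would mostly hold none. Each window has 300 bases, which include 50 bases after the start. The looser form CACNCCAC matched the Insig1 window alone, at -9 to -2 from the start on the minus strand, and 6.24% of all windows. The shorter core TCACCCCA, searched for after the windows had been read, matched the Srebf2 window alone, at -162 to -155, and 1.56% of all windows. Downstream of it, the Srebf2 window holds a CCAAT box in the reverse direction at -135 to -131. A CCAAT box stood in 5 of the 9 windows of these genes and in 37.4% of all windows, or for 5 of the 6 genes and 41.1% of all genes, and Scap was the gene without one. The E-box CACGTG was found for Insig1 at -101 to -96 and for Scap, in 2 of the 6 genes and 8.09% of all genes. By window it stood in 3 of the 9 and in 7.15% of all windows. The 2 Scap windows overlap and share this E-box and a Sp1 box, which are thus counted in each. The Sp1 box GGGCGG was found in 8 of the 9 windows and 35.7% of all windows, or for all 6 genes and 38.2% of all genes. A match describes these letters only.

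**Figure D1:**
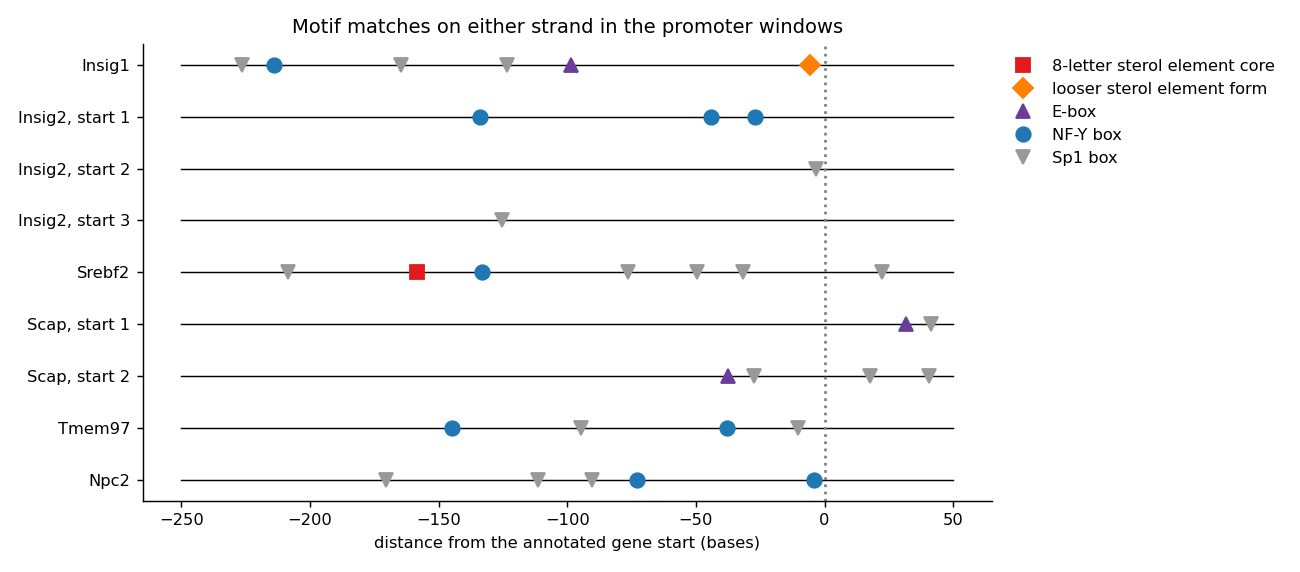
Positions of motif matches in the 9 promoter windows of 6 genes, by distance in bases from the annotated gene start, with 3 annotated starts for Insig2 and 2 for Scap. The Srebf2 window holds the TCACCCCA match and the Insig1 window the CACNCCAC match.

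Calls given below for fits without 1 library are to be read beside the calls over all 16121 genes in the same fits, since such a fit leaves a group with 1 library that is assumed to vary like the others. LOVA minus PTC called 3192 genes higher and 1747 lower with all libraries, against 3660 and 3184 without LOVA A, 534 and 115 without LOVA B, 2332 and 875 without NTC A, 2185 and 839 without NTC B, 0 and 0 without PTC A, and 1991 and 223 without PTC B. NTC minus PTC called 3472 higher and 2086 lower with all libraries, against 3702 and 3054 without LOVA A, 3698 and 3101 without LOVA B, 2360 and 569 without NTC A, 1 and 0 without NTC B, 981 and 135 without PTC A, and 2267 and 446 without PTC B. Calls over all genes were thus nearly or wholly lost without NTC B in NTC minus PTC and without PTC A in LOVA minus PTC, whichever genes are looked at. Scaling libraries to the 16 genes chosen as germ cell markers (pan-germ-cell scaling) moved all genes upwards against PTC. It called 4151 genes higher and 40 lower in LOVA minus PTC and 5510 higher and 45 lower in NTC minus PTC. Whether the 16 marker genes kept a constant level per germ cell was not tested.

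Of the sterol sensors, Insig1 was highest with lovastatin and lowest in the cultures with neither GDNF nor lovastatin. It had 471 and 407 CPM in LOVA A and B, 220 and 260 CPM in NTC, and 382 and 348 CPM in PTC, where CPM is a library's counts scaled to a common size by TMM. The 3 groups did not overlap. Its log2 fold change in LOVA minus NTC was 0.87 (SE 0.17, 95% interval 0.46 to 1.28), or 1.83-fold, with an unadjusted p of 0.00151 and an adjusted p of 0.348 over all genes in edgeR's quasi-likelihood test. DESeq2 gave an adjusted p of 0.0244 and edgeR without a filter on low counts 0.0286, while over all alternatives the adjusted p ran from 0.0244 to 1. With pan-germ-cell scaling it was 0.70, where the median of all genes was -0.12. Insig1 fell in NTC against PTC (log2 fold change -0.60, SE 0.17, adjusted p = 0.0354), where pan-germ-cell scaling gave 0.44. That scaling put the median of all genes at 0.99 in this contrast, so that Insig1 stood at -0.55 relative to it. The call was lost without NTC A (adjusted p = 0.198), NTC B (0.130), PTC A (0.210) or PTC B (0.120). In LOVA minus PTC it was at 0.27 (SE 0.17, adjusted p = 0.254) and did not pass.

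Insig2, the second Insig paralog, did not follow Insig1. It had 33.7 and 53.3 CPM in LOVA A and B, 39.7 and 52.2 CPM in NTC, and 26.9 and 28.7 CPM in PTC. LOVA and NTC overlapped and both lay above PTC. The log2 fold change was -0.08 (SE 0.27, 95% interval -0.72 to 0.56) in LOVA minus NTC, 0.65 (SE 0.27, adjusted p = 0.106) in LOVA minus PTC and 0.73 (SE 0.27, adjusted p = 0.075) in NTC minus PTC. The last passed in fits without LOVA A (adjusted p = 0.0270), without LOVA B (0.0274) and on the 2 groups alone (0.0273), with no filter on low counts (0.0369) and with pan-germ-cell scaling (1.78, 0.0428). LOVA minus PTC passed without LOVA A (0.94, adjusted p = 0.0207). In LOVA and NTC the B library, with the larger feeder share, had the higher Insig2 level, and the part of feeder cells in this was not tested.

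A ratio of counts within a library does not depend on how libraries are scaled. There were 14.0 and 7.63 Insig1 counts per Insig2 count in LOVA A and B, 5.53 and 4.99 in the NTC libraries, and 14.2 and 12.2 in PTC. Both NTC libraries had the lowest ratios, and LOVA B lay nearer to NTC than LOVA A did.

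**Figure D2:**
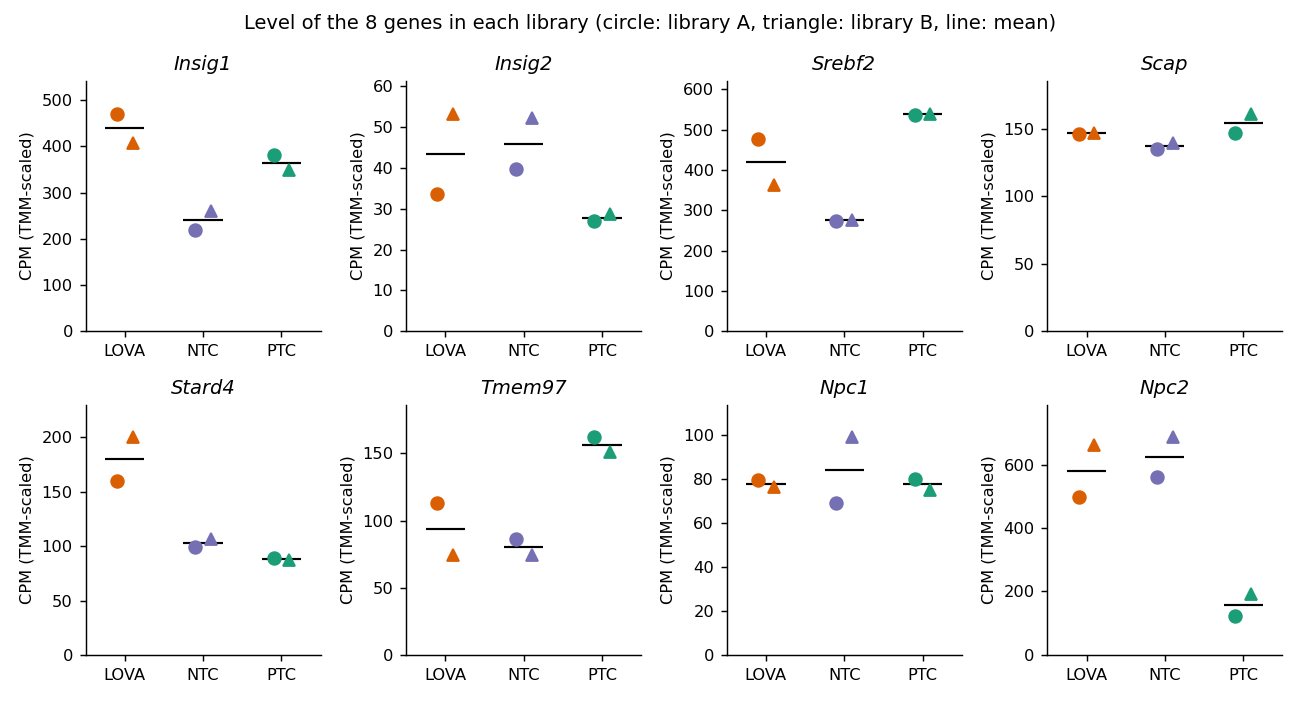
Level of each of the 8 genes in CPM (linear axis from 0) in the LOVA, NTC and PTC libraries, with a line at the mean of each group. Insig1 and Stard4 were highest in LOVA, Srebf2 and Tmem97 were highest in PTC, and Npc2 was lowest in PTC, on the TMM scale.

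Scap, the escort of SREBP2, spanned a narrow range of levels. It had 146 and 147 CPM in LOVA A and B, 135 and 139 CPM in NTC, and 147 and 161 CPM in PTC. Its log2 fold changes were 0.10 (SE 0.15, 95% interval -0.26 to 0.45) in LOVA minus NTC, -0.07 (SE 0.15) in LOVA minus PTC and -0.17 (SE 0.15) in NTC minus PTC. With pan-germ-cell scaling these were -0.03, 0.83 and 0.85, not called. Scap shares 985 exonic bases with 5830462I19Rik on the opposite strand, a gene that is not among the 31384 deposited. As for Npc1 below, whether the counting used strand is not given in the sources used here.

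Srebf2, which encodes the transcription factor, was highest with GDNF, lowest in NTC and in between in LOVA. It had 476 and 364 CPM in LOVA A and B, 274 and 277 CPM in NTC, and 537 and 540 CPM in PTC. The groups did not overlap, and the LOVA libraries were the farthest apart. Srebf2 fell in NTC against PTC (log2 fold change -0.97, SE 0.18, adjusted p = 0.0133), and was at 0.06 with pan-germ-cell scaling, or -0.93 relative to the median of all genes. Of the 16 pan-germ-cell genes 9 were called lower in the same contrast, where 12.9% of all genes were. The median of the 16 was -1.07, and their part in the differences of Insig1, Srebf2 and Tmem97 was not tested. The Srebf2 call was lost without NTC A (adjusted p = 0.0604), NTC B (0.101), PTC A (0.0704) or PTC B (0.0516), with log2 fold changes of -0.97 to -0.95. Srebf2 was at 0.61 in LOVA minus NTC (SE 0.18, 95% interval 0.19 to 1.03, unadjusted p = 0.0110, adjusted p = 0.911). LOVA minus PTC gave -0.36 (SE 0.18, adjusted p = 0.155), which turned to 0.50 with pan-germ-cell scaling, where the median of all genes was 0.89, and which passed without LOVA A (-0.56, adjusted p = 0.0266).

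The count of Srebf2 per Scap count was 3.26 and 2.49 in LOVA A and B, 2.03 and 2.00 in the NTC libraries, and 3.64 and 3.35 in PTC. The NTC libraries again had the lowest ratios, and the LOVA libraries lay between NTC and PTC.

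**Figure D3:**
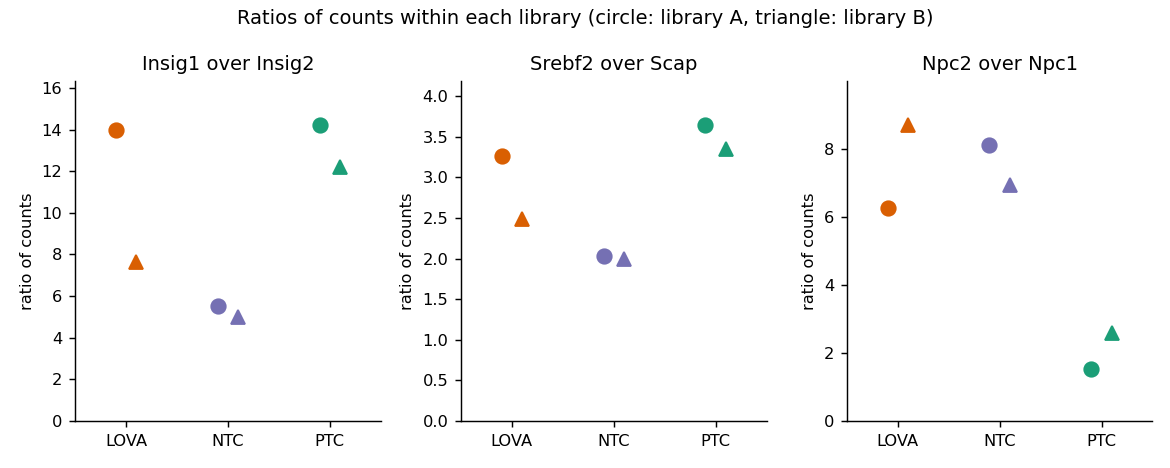
Ratios of counts between gene pairs within each library, on linear axes from 0. Insig1 over Insig2 and Srebf2 over Scap were lowest in both NTC libraries, and Npc2 over Npc1 was lowest in both PTC libraries.

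Among the transport genes, Stard4 rose in LOVA against PTC and was highest with lovastatin. It had 160 and 200 CPM in LOVA A and B, 99.5 and 107 CPM in NTC, and 88.8 and 87.3 CPM in PTC. Both LOVA libraries stood above the other 4, and NTC lay slightly above PTC. In LOVA minus PTC the log2 fold change was 1.03 (SE 0.18, 95% interval 0.62 to 1.45, adjusted p = 0.0171), or 2.05-fold, and it was 1.97 (adjusted p = 0.0336) with pan-germ-cell scaling. Without PTC A (1.05, adjusted p = 0.079) or PTC B (1.02, 0.0582) the call was lost. Stard4 was at 0.80 in LOVA minus NTC (SE 0.17, 95% interval 0.39 to 1.21, unadjusted p = 0.00262, adjusted p = 0.440). LOVA A over NTC A gave 0.69 on the log2 scale and LOVA B over NTC B gave 0.90. NTC minus PTC gave 0.23 (SE 0.17, adjusted p = 0.321). There were 0.340 and 0.492 Stard4 counts per Insig1 count in LOVA A and B, 0.453 and 0.413 in the NTC libraries, and 0.233 and 0.251 in PTC. Both PTC libraries had the lowest ratios.

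Tmem97, a sterol-responsive membrane protein known as the sigma-2 receptor and as a binding partner of NPC1, was highest with GDNF. It had 113 and 74.7 CPM in LOVA A and B, 86.2 and 74.6 CPM in NTC, and 162 and 151 CPM in PTC. LOVA and NTC overlapped, and both lay below PTC. It fell in NTC against PTC (-0.96, SE 0.23, adjusted p = 0.0228) and in LOVA against PTC (-0.73, SE 0.23, adjusted p = 0.0493), and was at 0.04 and 0.09 in these contrasts with pan-germ-cell scaling, or -0.95 and -0.80 relative to the median of all genes. The first call was lost without NTC A (adjusted p = 0.0682), NTC B (0.150), PTC A (0.108) or PTC B (0.0677). The second held without LOVA A (0.00821) and was lost without LOVA B (0.140), NTC A (0.0796), NTC B (0.0782), PTC A (0.199) or PTC B (0.135). Between LOVA and NTC Tmem97 differed by 0.23 (SE 0.23, 95% interval -0.31 to 0.77), or -0.10 without LOVA A, and did not pass.

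The lysosomal pair differed in that Npc2 rose in both comparisons with PTC and Npc1 was called in none. Npc1 had 79.5 and 76.1 CPM in LOVA A and B, 69.2 and 98.8 CPM in NTC, and 79.9 and 74.9 CPM in PTC. Its 3 groups overlapped, and its log2 fold changes were -0.11, 0.01 and 0.12 (SE 0.21 each) in LOVA minus NTC, LOVA minus PTC and NTC minus PTC. With pan-germ-cell scaling the last 2 were 0.90 and 1.18, not called. Npc1 shares 511 exonic bases with Rmc1 on the opposite strand, and the library kit marked strand, but whether the counting used it is not given in the sources used here.

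Npc2 had 497 and 661 CPM in LOVA A and B, 562 and 686 CPM in NTC, and 123 and 193 CPM in PTC. Every library without GDNF lay above both PTC libraries, and in each group B was higher than A. Npc2 rose in NTC against PTC by 1.98 on the log2 scale (SE 0.27, 95% interval 1.33 to 2.62, adjusted p = 0.00892), or 3.94-fold, and in LOVA against PTC by 1.87 (SE 0.27, adjusted p = 0.0167), or 3.66-fold. With pan-germ-cell scaling it stayed called, at 3.03 and 2.82. The call in NTC minus PTC was lost without NTC B (1.83, adjusted p = 0.0681), and that in LOVA minus PTC without PTC A (1.58, adjusted p = 0.0545). Between LOVA and NTC Npc2 was at -0.11 (SE 0.26, 95% interval -0.73 to 0.51). Feeder fibroblast markers moved with Npc2 between the groups and between the libraries of each group. Of these, 11 of 18 were called higher in NTC than in PTC, where 21.5% of all genes were. In LOVA against PTC 10 of 18 were, where 19.8% of all genes were. None was at 0 in any library, and their shares of counts are given above. Macrophage markers were called higher in 2 of 10 cases in LOVA against PTC, beside the same 19.8%. In NTC against PTC 10 of 10 were, beside 21.5%. Their median was -2.21 in LOVA minus NTC, with none called, where Npc2 was at -0.11. The part of feeder cells and macrophages in the Npc2 difference was not tested.

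There were 6.25 and 8.69 Npc2 counts per Npc1 count in LOVA A and B, 8.12 and 6.95 in the NTC libraries, and 1.54 and 2.58 in PTC. The PTC ratios stood below all others.

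**Figure D4:**
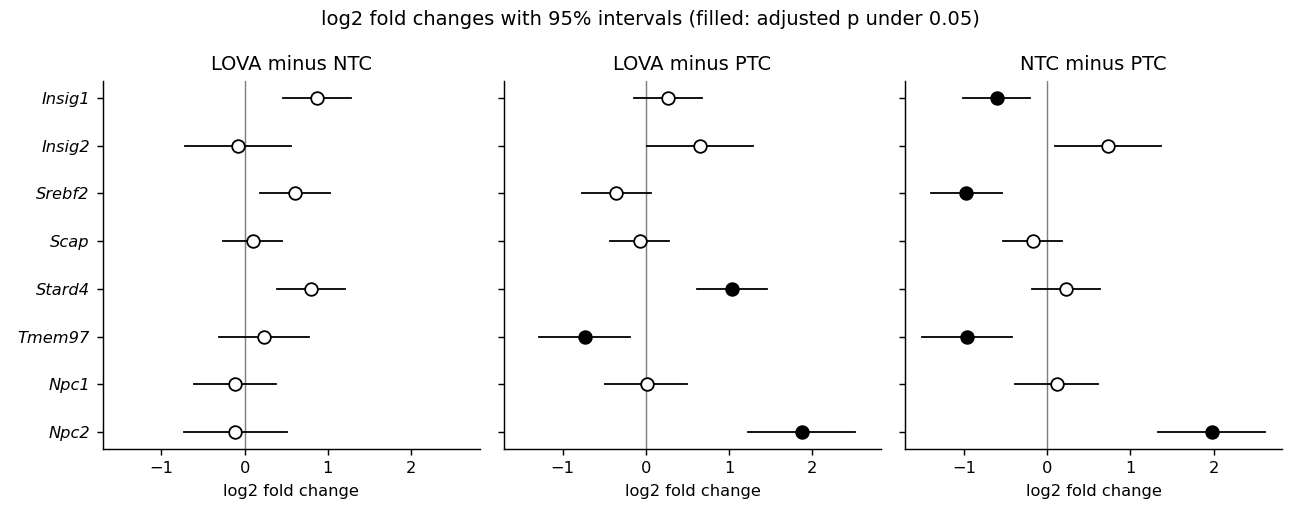
Log2 fold changes with 95% intervals of the 8 genes in the 3 contrasts, filled where the adjusted p was under 0.05, with libraries scaled by TMM. No gene passed in LOVA minus NTC, 3 passed in LOVA minus PTC and 4 in NTC minus PTC; with pan-germ-cell scaling Insig1, Srebf2, Scap and Tmem97 turned positive in NTC minus PTC, and Srebf2, Scap and Tmem97 in LOVA minus PTC.

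Counted together in LOVA minus NTC, none of the 8 genes passed edgeR's test, where 0.0% of all genes tested passed. DESeq2 called 1, Insig1, and limma-voom called none. At an unadjusted p under 0.05 there were 3 higher, Insig1, Stard4 and Srebf2, and 0 lower, where 1.35% of all genes were higher and 2.13% lower. In 4 of the 8 both LOVA libraries lay above both NTC libraries, against 12.7% of all genes, and in 0 of the 8 below, against 13.0%. The median of the 8 was 0.16 and that of all genes 0.01.

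In LOVA minus PTC 2 of the 8 were higher, Npc2 and Stard4, where 19.8% of all genes were, and 1 was lower, Tmem97, where 10.8% were. In NTC minus PTC 1 was higher, Npc2, where 21.5% of all genes were, and 3 were lower, Insig1, Srebf2 and Tmem97, where 12.9% were. Groups that do not overlap were common in both contrasts: LOVA lay above PTC in 4 members (38.4% of all genes) and below in 3 (37.9%), and NTC lay above PTC in 3 (39.0%) and below in 4 (38.5%). The 3 contrasts share libraries pairwise, so their values are not independent. The median of the 8 was 0.14 in LOVA minus PTC and -0.03 in NTC minus PTC, and that of all genes 0.00 and -0.02. The counts over all genes in the same fits are given above. The count in NTC minus PTC was 0 without NTC B, 1 without NTC A, PTC A or PTC B, and 2 higher and 0 lower with pan-germ-cell scaling. In LOVA minus PTC leaving out PTC A gave 0, leaving out PTC B 1 and leaving out LOVA A 5, with 2 higher and 0 lower with pan-germ-cell scaling.

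Other genes of the pathway were set beside these members. The cholesterol synthesis enzymes, targets of SREBP2, had positive log2 fold changes in LOVA minus NTC in 18 of 18 cases, with a median of 1.04, and in 17 of 18 with pan-germ-cell scaling, where Ebp was at -0.06. None was called by edgeR, 0 by limma-voom, 11 by DESeq2, which called 25 genes higher in all, and 15 by edgeR with no filter on low counts, which called 44 of 24026 higher. Hmgcs1, an early enzyme, had 560 and 656 CPM in LOVA A and B and 266 and 337 CPM in NTC (1.01, SE 0.18, adjusted p = 0.262). Fdps, which makes farnesyl diphosphate, had 450 and 323 CPM in LOVA and 195 and 178 CPM in NTC (1.05, SE 0.20, adjusted p = 0.287). Both LOVA libraries lay above both NTC libraries for these enzymes. Lss, which cyclises squalene epoxide to lanosterol, and Idi1, an isomerase of the mevalonate route, were at 1.36 and 1.35 (SE 0.16 each, adjusted p = 0.0764 for both), both named after their values were seen. Insig1 at 0.87 and Stard4 at 0.80 lay below that median, and Srebf2 at 0.61 lay lower still. Against PTC, 13 of the 18 rose in LOVA and none fell, where 19.8% of all genes rose and 10.8% fell. The median of the 18 was 0.89, and the largest rises were in Ebp (2.34), Sc5d (1.83) and Pmvk (1.49), enzymes of late and early steps. NTC against PTC had 2 that rose, Ebp (2.33) and Pmvk (0.93), and 5 that fell, where 21.5% of all genes rose and 12.9% fell. With pan-germ-cell scaling, which moved all genes upwards, this split was 5 higher and 0 lower, beside 5510 and 45 of all 16121 genes. In LOVA minus PTC fewer enzymes were called whichever library was left out, with the largest drop without PTC A. In NTC minus PTC fewer were called without an NTC or PTC library, with the largest drop without NTC B, and more without a LOVA library. Calls over all genes moved in the same directions, except that they rose in LOVA minus PTC without LOVA A.

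**Figure D5:**
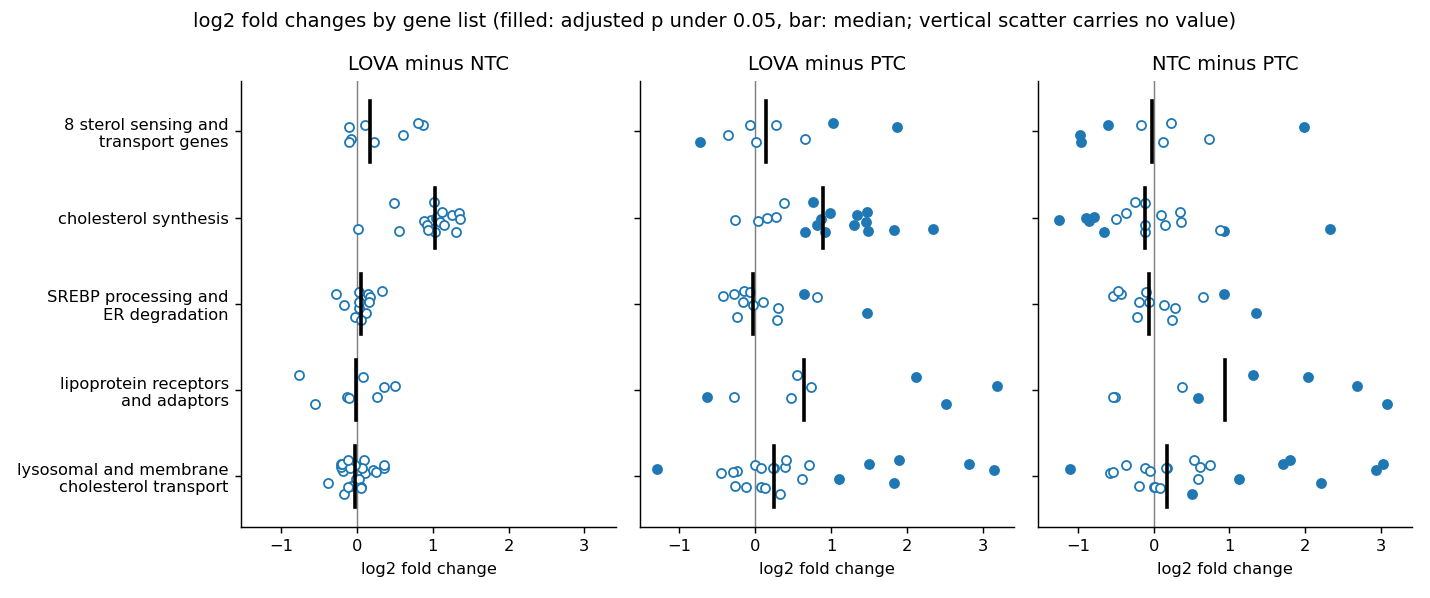
Log2 fold changes of single genes in 5 lists, by contrast, filled where the adjusted p was under 0.05, with a bar at the list's median. In LOVA minus NTC the cholesterol synthesis list had a median of 1.04, while the other 4 lists had medians from -0.03 to 0.16. Libraries were scaled by TMM. With pan-germ-cell scaling, NTC minus PTC had 5 of 18 enzymes called higher and 0 lower, beside 5510 and 45 of all 16121 genes.

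The 13 genes of SREBP processing and sterol-regulated degradation in the endoplasmic reticulum lay close to 0 in LOVA minus NTC, with a median of 0.05 and none called. Mbtps1, the first protease that cuts SREBP2, had 298 and 330 CPM in LOVA A and B and 283 and 325 CPM in NTC (0.05, SE 0.16, and -0.07 with pan-germ-cell scaling). Erlin2, which takes part in degradation at the endoplasmic reticulum, was at -0.02 (SE 0.16). Srebf1, which encodes the related factor SREBP1, was at 0.03 (SE 0.16, and -0.10 with pan-germ-cell scaling), named after its value was seen. Against PTC, 2 of 13 rose and none fell in LOVA, where 19.8% of all genes rose and 10.8% fell. Likewise 2 of 13 rose and none fell in NTC, where 21.5% of all genes rose and 12.9% fell. Aup1, which takes part in protein degradation at the endoplasmic reticulum, had 54.2 and 56.3 CPM in LOVA A and B, 64.1 and 70.1 CPM in NTC, and 33.2 and 37.4 CPM in PTC. It was 1 of those that rose, by 0.64 on the log2 scale in LOVA (SE 0.17, adjusted p = 0.0345) and 0.93 in NTC (SE 0.17, adjusted p = 0.0136). Without PTC A both calls were lost, as they were in NTC minus PTC without NTC B and in LOVA minus PTC without LOVA B, fits in which calls over all genes fell as well. The list had 1 call in LOVA minus PTC without NTC A, NTC B or PTC B and 4 without LOVA A. With pan-germ-cell scaling, 4 of the 13 were called higher and 0 lower in NTC minus PTC, beside 5510 and 45 of all 16121 genes.

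Of the 8 lipoprotein receptors and uptake adaptors, 3 rose and 1 fell in LOVA against PTC. Of all genes 19.8% rose there and 10.8% fell. In NTC against PTC 5 of the 8 rose and 0 fell, where 21.5% of all genes rose and 12.9% fell. None of the 8 was called in LOVA minus NTC. Lrp1, a large endocytic receptor, had 658 and 1411 CPM in LOVA A and B, 626 and 1331 CPM in NTC, and 175 and 300 CPM in PTC. Within every group its level was higher in B, the library with more feeder marker counts. The adaptor Dab2 was at 2.51 in LOVA minus PTC and 3.08 in NTC minus PTC, and the receptor Vldlr at 3.19 and 2.68. Between LOVA and NTC Dab2 was at -0.56 (SE 0.48) and Lrp1 at 0.08 (SE 0.50). Of the 23 genes of lysosomal and inter-membrane cholesterol transport, 6 rose and 1 fell in LOVA against PTC. In NTC against PTC 7 rose and 1 fell. These counts stand beside the same 19.8% and 21.5% of all genes that rose, and the 10.8% and 12.9% that fell. Within this list Scarb2, a lysosomal membrane protein that binds cholesterol, was at 2.82 and 3.02. The oxysterol-binding protein relative Osbpl5 was at 3.15 and 2.94. Lipa, the lysosomal acid lipase that frees cholesterol from its esters, rose by 2.21 on the log2 scale in NTC against PTC. The lysosomal membrane proteins Lamp1 and Lamp2 were at -0.17 (SE 0.16) and 0.09 (SE 0.31) in LOVA minus NTC, and Lamp2 rose in LOVA against PTC (1.89, adjusted p = 0.0171). With pan-germ-cell scaling, no gene of either list was called lower in LOVA minus PTC or NTC minus PTC. Of all 16121 genes 40 and 45 were called lower in these contrasts, and 4151 and 5510 higher. Among the 8 receptors and adaptors 5 were higher in each contrast. Of the 23 transport genes 6 were higher in LOVA minus PTC and 11 in NTC minus PTC. Both lists had 0 calls without NTC B in NTC minus PTC and without PTC A in LOVA minus PTC, fits that called 1 and 0 of all genes. Without PTC A, NTC minus PTC had 1 call among the receptors and adaptors and 4 in transport, which had 5 without PTC B. Without LOVA B, LOVA minus PTC had 0 and 2. Feeder marker shares differed between the same groups, and their part was not tested.

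Levels can be compared between genes only per length, here as CPM per kilobase of the union of annotated exons. In LOVA the order of mean levels was Insig1 (142 ± 14.7, SD, n = 2), Npc2 (106 ± 21.4), Tmem97 (68.3 ± 19.8), Srebf2 (58.5 ± 11), Stard4 (32.3 ± 5.09), Scap (19.7 ± 0.0279), Insig2 (12.5 ± 4.0) and Npc1 (6.87 ± 0.209). From Insig1 to Srebf2, neighbours in this order did not differ beyond their spread, for Insig1 and Npc2 only narrowly. In NTC Npc2 led with 115 ± 16.2, followed by Insig1 (77.6 ± 9.30), Tmem97 (58.5 ± 5.97), Srebf2 (38.4 ± 0.329), Stard4 (18.5 ± 1.01), Scap (18.4 ± 0.359), Insig2 (13.2 ± 2.54) and Npc1 (7.42 ± 1.85), and Stard4 and Scap did not differ beyond their spread. In PTC Insig1 (118 ± 7.64) and Tmem97 (114 ± 5.84) led and did not differ beyond their spread, followed by Srebf2 (74.9 ± 0.293), Npc2 (29.1 ± 9.10), Scap (20.7 ± 1.28), Stard4 (15.8 ± 0.183), Insig2 (7.99 ± 0.362) and Npc1 (6.84 ± 0.313). In PTC Npc2 and Scap did not differ beyond their spread either. Insig1 stood above its paralog Insig2 in every library, with at least 4.99 counts per Insig2 count. The order depended on the length used. With the longest transcript, Npc2 (176) passed Insig1 (163) and Srebf2 (82.8) passed Tmem97 (68.3) in LOVA, Scap (32.4) passed Stard4 (20.3) in NTC, and Npc1 (13.5) passed Insig2 (10.3) in PTC.

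The genes whose pattern over the 6 libraries was most like each member were found by the root mean square difference of centred log2 CPM among 11356 genes. For Insig1 the 3 nearest lay at 0.110 to 0.117, and Aacs, which activates ketone bodies for lipid synthesis, was among them. Srebf2 was nearest to Zfp583 and Hunk (0.076 each), Stard4 to Zfx (0.087), Insig2 to Zfp36l1 (0.038), Tmem97 to Gon4l (0.039), Scap to Mta1 and Ufd1 (0.035 each), Npc1 to Neurl1a (0.066) and Npc2 to Lrpap1 (0.039). Among the members themselves, Scap and Npc1 (0.19) and Srebf2 and Tmem97 (0.21) were the closest pairs, and Tmem97 and Npc2 (1.39) the farthest apart. Many other genes lay nearer: Npc1 ranked 1979 of 11356 by likeness to Scap and 772 the other way round, and Tmem97 ranked 350 by likeness to Srebf2 and 1862 the other way round.

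By GENCODE M21 on mm10, Insig1 (ENSMUSG00000045294) lies on chromosome 5 from 28071363 to 28078662 and Insig2 (ENSMUSG00000003721) on chromosome 1 from 121304353 to 121332589. Srebf2 (ENSMUSG00000022463) lies on chromosome 15 from 82147181 to 82205379 and carries the microRNA gene Mir33 within its bounds, which was not analysed here. Scap (ENSMUSG00000032485) lies on chromosome 9 from 110333288 to 110384950, Stard4 (ENSMUSG00000024378) on chromosome 18 from 33199355 to 33213862, and Tmem97 (ENSMUSG00000037278) on chromosome 11 from 78541817 to 78550777. Npc1 (ENSMUSG00000024413) lies on chromosome 18 from 12189692 to 12236400 and Npc2 (ENSMUSG00000021242) on chromosome 12 from 84754562 to 84773152. All 8 are protein-coding genes.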

How the data were processed

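Raw counts, deposited as whole numbers for each Ensembl gene, were the starting point. Per the submitters' processing notes the build was mm10 and the tools included RSEM, Bowtie2, Trimmomatic and DESeq2, with no version. Whether the counts are rounded RSEM estimates is not settled by the table. Symbols came from GENCODE M21, which matched 31363 of 31384 identifiers. Column names give the group and a letter, and nothing ties the letters to the replicate numbers of the labels.

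Genes were kept by filterByExpr (16121), libraries scaled by TMM, and 6 libraries in 3 groups fitted together in edgeR 4.0.16 with robust dispersions and the quasi-likelihood test (3 residual degrees of freedom, R 4.3.3). Calls used a Benjamini-Hochberg adjusted p under 0.05 over all genes tested. The fit was tested on simulated data. A floor of 3 counts was 0.128 to 0.258 CPM and covers counting error only. The members, lists and tests were chosen with earlier results of these data known. Named genes were the 8 members, up to 3 called genes of each pathway list per contrast (the 2 most abundant where none was called) and the 3 genes most like each member. Some genes so chosen are not reported here. Alternatives were DESeq2 1.42.0 and its size factors, limma-voom (limma 3.58.1), no filter, pan-germ-cell scaling, 2 groups alone, a block by column letter, and leaving out each library. Sertoli, Leydig and endothelial markers took at most 0.00204% of counts in any library.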

Additional observations from a re-analysis of the deposited data

How the results depend on the processing

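The number of members called in NTC minus PTC was 4, between 0 and 5 when 1 library was left out, fits that called between 1 and 6799 of all genes, and 2 with pan-germ-cell scaling. In LOVA minus PTC it was 3, and between 0 and 5 when 1 library was left out, fits that called between 0 and 6844. In LOVA minus NTC it was 0, and 1 (Insig1) with DESeq2, with no filter on low counts and with the replicate block by column letter (log2 fold change 0.87, adjusted p = 0.0400). A-minus-B differences of the groups correlated over genes at 0.247 to 0.366. With 2 letters that no label explains this is a hint and not a pairing. With the block, Insig2 passed in NTC minus PTC (0.71) and LOVA minus PTC (0.62), and no call of a member was lost. The block also called 12 synthesis enzymes higher in LOVA minus NTC, of 18 genes higher in all. The number of members with a sterol element was 0 with TCACNCCAC, 1 with CACNCCAC (Insig1) and 1 with TCACCCCA (Srebf2).

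Signs changed as follows. With pan-germ-cell scaling, Insig1 (0.44), Srebf2 (0.06), Scap (0.85) and Tmem97 (0.04) were positive in NTC minus PTC, as were Srebf2 (0.50), Scap (0.83) and Tmem97 (0.09) in LOVA minus PTC, and Scap was negative in LOVA minus NTC (-0.03). That scaling puts every gene relative to germ cell transcripts and so moves all genes together. Leaving out a library changed the sign of values near 0 that were not called. Over these fits Npc1 ran from -0.16 (without NTC B) to 0.36 in NTC minus PTC. The ranges in LOVA minus NTC were -0.45 to 0.21 for Insig2, with 0.13 without NTC B, -0.10 to 0.49 for Tmem97, -0.37 to 0.17 for Npc1, and -0.33 to 0.08 for Npc2, with 0.04 without NTC B. Npc1 in LOVA minus PTC ran from -0.04 to 0.05, with -0.02 without LOVA A or NTC A, and was negative with no filter (-0.03) and on the 2 groups alone (-0.02), where Tmem97 lost its call (adjusted p = 0.0747). Every member had at least 429 counts in each library.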
